A study of Mus musculus with 12 samples.

Results

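The level of 40 mouse germ cell and meiosis genes was followed in 12 RNA-seq libraries from 4 groups of cells labelled as neural, out of 45706 genes in the deposited count table. The genes were taken by symbol from a list of germ cell genes. All 40 were found, Tex13 under the symbol Tex13b. Genes of this class are known to carry methylated, CpG-rich promoters in most somatic cells and to be transcribed in germ cells, where chromosomes pair, recombine and silence transposons. The DNA methyltransferases Dnmt3a and Dnmt3b, with their cofactor Dnmt3l, set this methylation in the early embryo, and Dnmt1 with Uhrf1 copies it at each cell division. A complex that holds E2f6, Mga and Max binds many of these promoters and recruits further repressors. Methylation itself was not measured in these libraries, so the level of RNA is the only readout given here.

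The libraries were made from cultures that descend from mouse embryonic stem cells (ESCs) of the C57BL/6 strain in which GFP is knocked into 1 copy of Sox1, an early neural transcription factor. Each group held 3 biological replicates generated on different days. NSC libraries came from unsorted neuroepithelial cells after neural induction of the ESCs, and NR libraries from neural rosette cells sorted for GFP. Baseline libraries came from Sox1-negative glial progenitors (neural progenitor cells, NPCs), which the labels give as not sorted although the study's text describes sorting of NPCs. Sox1posGP libraries came from NPCs in which dCas9-VP64, a transcriptional activator without nuclease activity, was guided to the Sox1 promoter, and which were sorted for GFP. The NPC lines that express dCas9-VP64 were each grown from single cells, and which line gave which library is not stated in the sources used here.

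The labels were checked against markers before the germ cell genes were compared. Sox1 was at 4.83, 5.99 and 5.42 CPM (counts relative to library size, with library sizes scaled by the TMM method of edgeR) in Baseline replicates 1 to 3 and at 20.2, 20.9 and 21.7 CPM in Sox1posGP, a log2 fold change of 1.97 ± 0.43 (SE) with an adjusted p of 0.00221. NSC libraries held 48.6, 64.9 and 51.7 CPM of Sox1, but the NR libraries, which were sorted for the Sox1 reporter, held only 4.61, 19.98 and 19.2 CPM. Markers of pluripotent cells went against the label of the NR libraries. Pou5f1, the pluripotency factor that neural cells lack, was at 133, 74.7 and 95.4 CPM in NR against 12.0, 4.21 and 8.83 CPM in NSC, and between 0 and 0.50 CPM in every NPC library. Over a list of 18 markers of pluripotent and primordial germ cells, the summed level was 2250 to 4151 CPM in NR, 143 to 300.2 CPM in NSC, 50.8 to 60.8 CPM in Baseline and 62.8 to 67.7 CPM in Sox1posGP. The sum of 9 neural progenitor markers was lowest in NR, at 370 to 688 CPM, with NR 1 lowest of all 12 libraries. Dppa3, another gene of pluripotent and primordial germ cells, was at 144, 96.5 and 108 CPM in NR and at 2.31 to 2.89 CPM in NSC. Results on NR are therefore given as those of the libraries labelled NR, with and without NR 1. In bulk RNA, more cells of a type and more RNA per cell cannot be told apart.

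Depth limits what can be said of genes near 0. NSC libraries held 29046205 to 43095688 counts, NR 16707006 to 34594885, Baseline 4939268 to 18351483 and Sox1posGP 3407066 to 6315574. A total of 3 counts over the 3 libraries of a group, the limit that a count of 0 allows, equals 0.0290 CPM in NSC, 0.0368 CPM in NR, 0.0976 CPM in Baseline and 0.192 CPM in Sox1posGP. These limits and the intervals given for ratios cover counting error only.

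The promoters of the germ cell genes were rich in CpG. RefSeq (GRCm38.p6) gave the sequence before the start of 34 of the 40 genes. In the 250 bases before the first listed start, these held a median of 15 CpG dinucleotides and between 5 and 40, and 29 of 34 (85.3%) held at least 10. Over all 27025 genes of the table the median was 6, and 38.2% held at least 10. The ratio of observed to expected CpG had a median of 0.69 in the germ cell genes and of 0.38 over all genes. The promoters of 6 genes are shown, each 5′ to 3′ on the strand of the gene and ending at the base before the start, with every CpG in capitals, because they cover the range of levels found: Dazl, Mael and Hormad1 were high in NR and near 0 in NPCs, Stra8 had the fewest CpG, and Tdrkh and Brdt were detected in every group.
Dazl: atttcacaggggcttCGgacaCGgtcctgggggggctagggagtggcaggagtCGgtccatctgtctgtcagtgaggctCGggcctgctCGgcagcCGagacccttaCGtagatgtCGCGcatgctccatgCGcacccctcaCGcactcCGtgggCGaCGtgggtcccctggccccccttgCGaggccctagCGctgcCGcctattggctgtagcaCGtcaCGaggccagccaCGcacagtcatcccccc
Mael: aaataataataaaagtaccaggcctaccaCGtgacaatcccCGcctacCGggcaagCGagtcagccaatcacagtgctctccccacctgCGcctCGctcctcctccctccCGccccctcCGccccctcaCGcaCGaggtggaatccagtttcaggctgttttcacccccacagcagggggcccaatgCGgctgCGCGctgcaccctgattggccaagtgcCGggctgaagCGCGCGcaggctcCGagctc
Hormad1: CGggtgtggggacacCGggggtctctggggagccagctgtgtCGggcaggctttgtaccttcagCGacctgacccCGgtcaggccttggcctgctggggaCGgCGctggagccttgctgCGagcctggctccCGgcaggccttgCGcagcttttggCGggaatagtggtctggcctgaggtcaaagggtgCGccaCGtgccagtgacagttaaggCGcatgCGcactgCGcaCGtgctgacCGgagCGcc
Stra8: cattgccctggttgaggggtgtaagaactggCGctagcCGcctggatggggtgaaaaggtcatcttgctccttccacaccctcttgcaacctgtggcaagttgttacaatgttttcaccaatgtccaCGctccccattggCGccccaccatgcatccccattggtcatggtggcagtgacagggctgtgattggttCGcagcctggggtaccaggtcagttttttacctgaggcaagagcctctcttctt
Tdrkh: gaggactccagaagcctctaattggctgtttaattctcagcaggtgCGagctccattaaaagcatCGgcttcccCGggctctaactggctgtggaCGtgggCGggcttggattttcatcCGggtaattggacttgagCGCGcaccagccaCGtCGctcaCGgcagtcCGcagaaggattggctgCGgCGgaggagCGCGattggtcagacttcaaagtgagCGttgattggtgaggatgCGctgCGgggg
Brdt: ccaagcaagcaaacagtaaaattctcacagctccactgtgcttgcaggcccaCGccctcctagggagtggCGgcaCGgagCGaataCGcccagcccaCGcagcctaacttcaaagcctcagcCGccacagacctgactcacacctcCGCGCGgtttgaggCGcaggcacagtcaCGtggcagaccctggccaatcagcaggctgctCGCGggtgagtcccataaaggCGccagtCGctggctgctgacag

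The Dazl promoter lies at chr17:50293621-50293870 on the minus strand with 20 CpG, and that of Mael at chr1:166238745-166238994 on the minus strand with 18. The Hormad1 promoter lies at chr3:95559427-95559676 on the plus strand with 19 CpG, and that of Stra8 at chr6:34920698-34920947 on the plus strand with 5. Tdrkh has 19 CpG at chr3:94412994-94413243 and Brdt 16 at chr5:107330944-107331193, both on the plus strand. The CpG count therefore did not separate these last 2 genes from the silent ones. A pair of short motifs was searched on both strands of the same windows. The letters CACGTG, the E-box that Max and its partners read, were in 15 of 34 promoters (44.1%) and in 6.05% of all promoters. The letters TTCCCGC, an E2F-type site, were in 7 of 34 (20.6%) and in 3.84% of all. The last base of CACGTG can be the first of the reverse complement GCGGGAA, so the motifs can overlap by 1 base. A total of 3 promoters, those of Ddx4, Sycp3 and Hormad1, held both. Of the 6 promoters shown, Mael had CACGTG at position -223, Hormad1 at -57 and -20, and Brdt at -78, counted from the start with -1 as the last base before it, and Hormad1 had the reverse complement of TTCCCGC at -95. A match is a description of these letters and does not show binding.

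**Figure D1:**
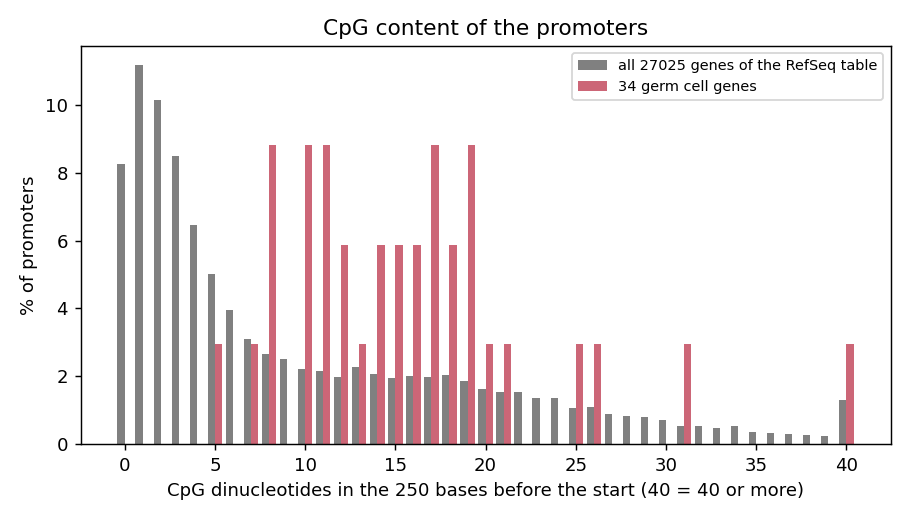
CpG dinucleotides in the 250 bases before the start (x axis) against the percentage of promoters (y axis), in grey for all 27025 genes of the RefSeq table and in red for the 34 germ cell genes with a promoter there. The germ cell genes lie between 5 and 40 CpG with a median of 15, while the median of all genes is 6.

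The germ cell genes were detected mainly in the NR libraries. With detection set at a mean of at least 1 CPM, 32 of 40 were detected in NR, 14 in NSC, 4 in Baseline and 3 in Sox1posGP. Single libraries held 29 to 34 genes at this level in NR, 9 to 17 in NSC, 4 to 7 in Baseline and 3 to 4 in Sox1posGP, so the ranges of NR and NSC did not overlap. The share of all genes at this level was not counted. Of all 45706 genes, 24067 to 26878 had a count in an NR library and 23650 to 26002 in an NSC library. In Baseline 17607 to 20949 had one and in Sox1posGP 17065 to 18844, so fewer genes of any kind were seen in NPCs. The 4 genes detected in Baseline were Tdrkh, Brdt, Stag3 and Piwil2, and the first 3 of them were those detected in Sox1posGP. The other 36 genes had means of at most 0.888 CPM in Baseline and 0.895 CPM in Sox1posGP. No count at all was found in the 3 libraries together for 5 genes in Baseline and for 14 in Sox1posGP, and 26 and 30 genes had 3 counts or fewer. Detection rose with depth as well: at least 1 count in every library was found for 39 genes in NSC, 12 in Baseline and 10 in Sox1posGP, and at the depth of the smallest library the expected numbers were 21.9, 8.86 and 7.92, with 35.7 in NR.

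**Figure D2:**
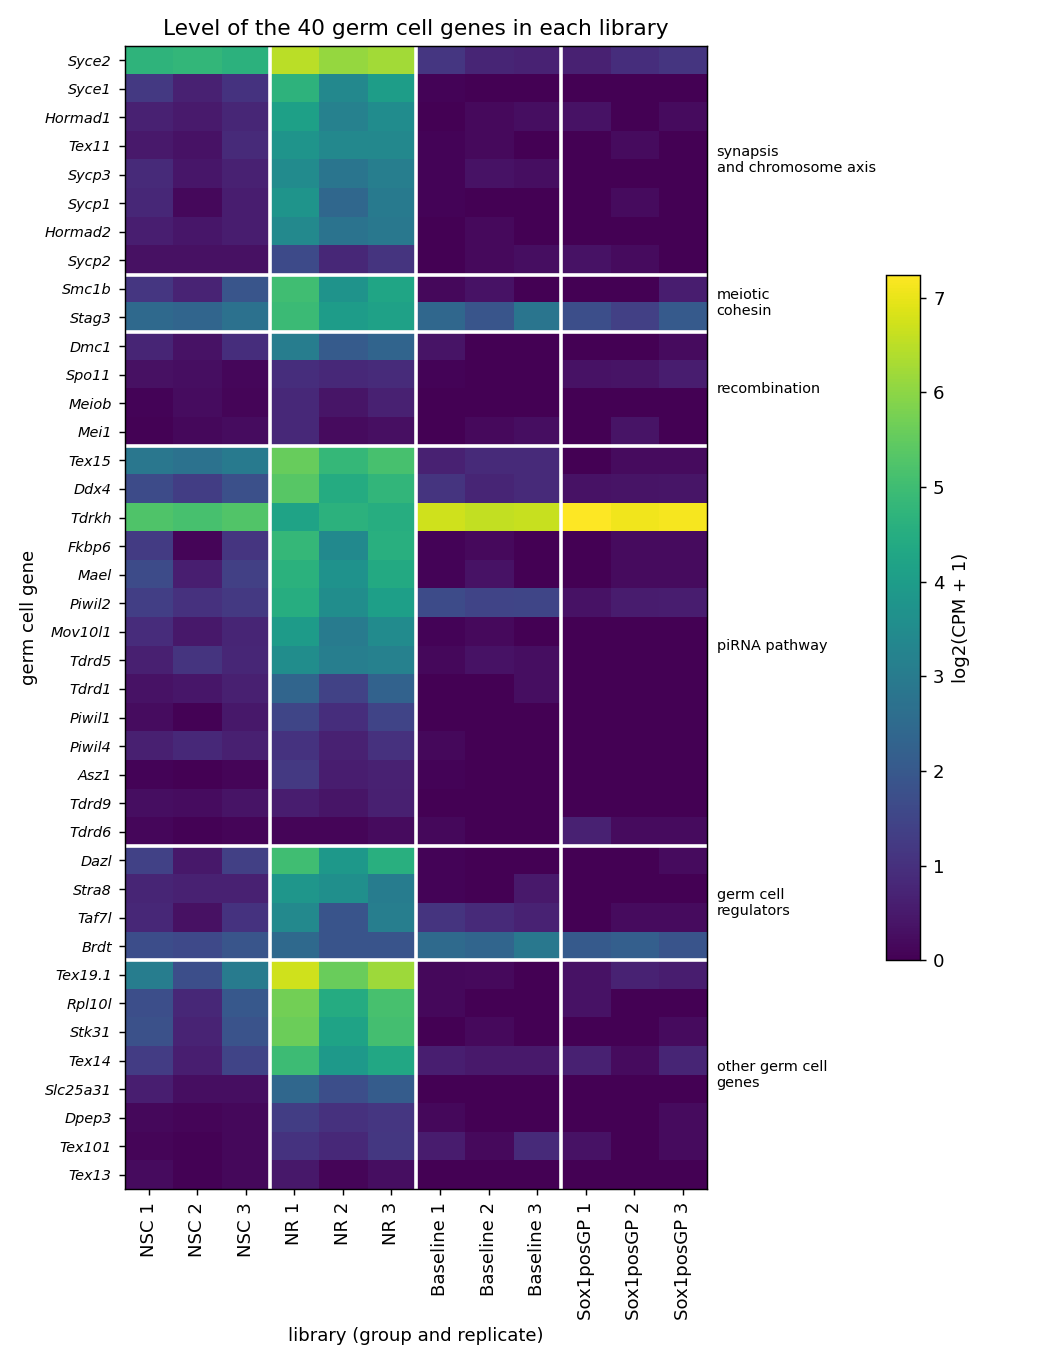
Level of each of the 40 germ cell genes (rows, grouped by role and ordered within a role by the mean in NR) in each of the 12 libraries (columns), as log2(CPM + 1) on the colour scale. The 3 NR columns are bright for most genes, the 3 NSC columns are dim, and in Baseline and Sox1posGP only Tdrkh is bright, with Brdt, Stag3 and Piwil2 faint.

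The comparison of NR with NSC set the libraries labelled as neural rosette cells against those labelled as neuroepithelial cells. The markers above went against the NR label. In NR, 31 of the 40 genes were higher than in NSC and 1, Tdrkh, was lower, at an adjusted p under 0.1 (edgeR's quasi-likelihood test, Benjamini-Hochberg adjustment over 17003 genes). Over all genes tested, 30.0% were called higher and 26.6% lower. Over the 32778 genes with a count, the shares were 15.6% and 13.8%, with genes not tested taken as not called. Those of the 40 genes were 77.5% and 2.5%. The filter on low counts kept 34 of the 40 genes, and Brdt and Piwil4 were tested but not called. In 34 of the 40 genes every NR value was above every NSC value, which held for 30.0% of the genes tested. The median log2 fold change of the 40 genes, in the fit without a filter, was 3.49, against 0.05 over all 32778 genes with a count. Without NR 1, the NR library with the lowest Sox1, 31 genes were still higher and 1 lower, and the median log2 fold change of the 34 tested genes went from 3.68 to 3.39. Summed over the 39 genes other than Tdrkh, the level was 377 to 741 CPM in NR, 54.2 to 75.9 CPM in NSC, 14.8 to 20.2 CPM in Baseline and 9.55 to 11.8 CPM in Sox1posGP. With Tdrkh the sums were 401 to 758 CPM in NR and 88.2 to 114 CPM in NSC. They were then 109 to 123 CPM in Baseline and 145 to 160 CPM in Sox1posGP, so NSC was no longer above the NPC groups.

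The markers of pluripotent and primordial germ cells moved with this difference. All 18 were higher in NR than in NSC, and the ratio of the mean sums of NR and NSC was 13.4 for the markers. For the germ cell genes the ratio was 5.47 over all 40, 8.09 without Tdrkh and 11.1 without Tdrkh and Syce2. It thus depended on which genes were left out. The order of the libraries was also shared. NR 1 had the highest level for 36 of the 40 germ cell genes and the highest marker sum, NR 2 had the lowest level for 35 and the lowest marker sum within NR, and NSC 2 had the lowest level for 32 and the lowest marker sum within NSC. How often these libraries were highest or lowest over all genes was not counted. Each order rests on 3 libraries, so the genes are not separate evidence of it. The part of pluripotent or primordial germ cells in the germ cell gene levels was not tested, and the list holds markers of both.

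**Figure D3:**
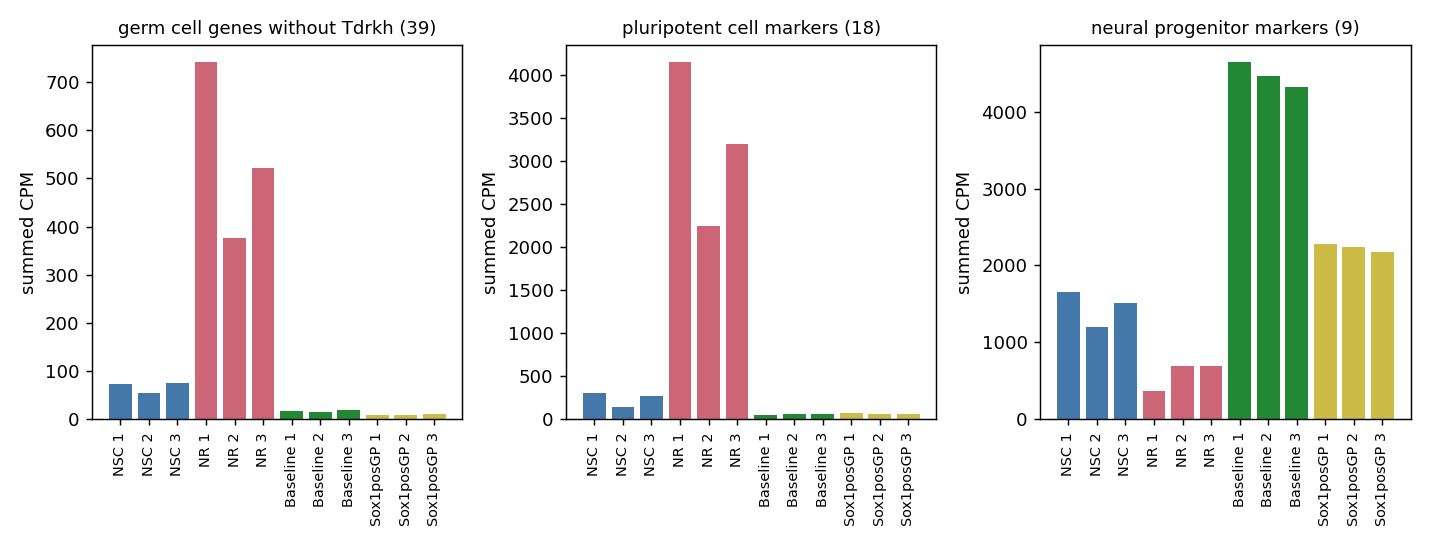
Summed CPM (y axis, linear from 0) of 39 germ cell genes without Tdrkh, of 18 markers of pluripotent and primordial germ cells and of 9 neural progenitor markers in each of the 12 libraries (x axis, 1 bar a library, colours by group). The germ cell sum is 377 to 741 CPM in NR and at most 75.9 CPM elsewhere, the sum of the 18 markers is 2250 to 4151 CPM in NR, and the neural progenitor sum is lowest in NR 1.

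Genes of synapsis and the chromosome axis build the protein scaffold that holds paired chromosomes together in meiosis. All 8 were higher in NR than in NSC, and the lowest NR value was above the highest NSC value for each. Syce2, a protein of the central element of this scaffold, stood out in NSC: it was at 25.1, 26.7 and 24.2 CPM there, at 89.2, 67.9 and 74.8 CPM in NR, and at 0.579 to 1.19 CPM over the 6 NPC libraries. Its rise from NSC to NR was the smallest of the 31 called, with a log2 fold change of 1.61 ± 0.13 (adjusted p = 1.65e-06). Syce1, of the same central element, was at 1.30, 0.587 and 1.096 CPM in NSC and at 24.7, 9.44 and 15.5 CPM in NR, with 1 count in all of Baseline and none in Sox1posGP. So Syce2 had a mean of 25.3 ± 1.25 CPM (SD, n = 3) in NSC where Syce1 had 0.993 ± 0.366 CPM. Sycp1, the transverse filament, was at 0.738, 0.104 and 0.487 CPM in NSC and at 12.4, 4.38 and 6.82 CPM in NR. Sycp3, of the axial element, was at 0.805, 0.345 and 0.579 CPM in NSC and at 10.3, 5.99 and 7.60 CPM in NR. Both were at 0.279 CPM or less in every NPC library. Of the exon bases of Sycp3, 52.2% overlap exons of Chpt1 on the opposite strand, and the strand setting of the counting is not stated. Chpt1 had means of 39.9 CPM in NSC and 35.6 CPM in NR. Sycp2, the partner of Sycp3 in the axis, was low throughout, with NR values of 0.741 to 2.09 CPM and NSC values of 0.242 to 0.246 CPM.

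Hormad1, which marks unpaired axes, was at 0.581, 0.449 and 0.731 CPM in NSC and at 16.5, 8.06 and 10.49 CPM in NR, a log2 fold change of 4.29 ± 0.38 (adjusted p = 2.49e-06). Hormad2, its relative, was at 0.536, 0.345 and 0.487 CPM in NSC and at 9.53, 5.80 and 6.43 CPM in NR. Tex11, an X-linked gene needed for crossing over, was at 0.402, 0.276 and 0.822 CPM in NSC and at 12.4, 9.51 and 9.34 CPM in NR. Its log2 fold change of 4.36 ± 0.36 was among the largest (adjusted p = 1.55e-06). In the NPC libraries these 3 genes had between 0 and 0.289 CPM.

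The meiotic cohesin subunits hold sister chromatids together. Smc1b was at 1.21, 0.656 and 2.74 CPM in NSC, at 31.3, 12.2 and 18.2 CPM in NR and at 0 to 0.50 CPM in the NPC libraries. Stag3 kept a low level in every group: 4.56, 4.17 and 5.57 CPM in NSC, 29.5, 15.1 and 16.7 CPM in NR, 4.35, 2.79 and 6.05 CPM in Baseline and 2.31, 1.57 and 3.17 CPM in Sox1posGP. Its NR values lay above those of every other group, and the rise over NSC had a log2 fold change of 2.09 ± 0.29 (adjusted p = 6.38e-05). Among the genes of meiotic recombination, Dmc1, the strand-exchange recombinase, was at 0.670, 0.276 and 0.913 CPM in NSC and at 7.44, 3.19 and 4.04 CPM in NR, with 5 counts in Baseline and 1 in Sox1posGP. Spo11, which makes the breaks that start recombination, was at 0.0913 to 0.246 CPM in NSC and at 0.773 to 0.922 CPM in NR. Meiob and Mei1 did not pass the filter and stayed at 0.799 CPM or less in every library.

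The piRNA pathway uses PIWI proteins loaded with small RNAs, held by Tudor-domain proteins, to silence transposons in germ cells. Of its 14 genes, 9 were higher in NR than in NSC, Tdrkh was lower, Piwil4 was not called, and Asz1, Tdrd6 and Tdrd9 were not tested. Ddx4, the germ cell RNA helicase also named Vasa, was at 2.12, 1.48 and 2.41 CPM in NSC and at 39.9, 21.01 and 26.2 CPM in NR. It was at 1.13, 0.697 and 0.834 CPM in Baseline and at 0.289, 0.314 and 0.333 CPM in Sox1posGP. No pair of groups overlapped, with NR highest and Sox1posGP lowest, and the log2 fold change of NR against NSC was 3.84 ± 0.26 (adjusted p = 3.29e-07). Tex15, which acts in piRNA-guided methylation of transposons, was at 6.35, 5.69 and 6.85 CPM in NSC and at 46.0, 27.5 and 34.0 CPM in NR. It was at 0.596 to 0.836 CPM in Baseline and at 0 to 0.167 CPM in Sox1posGP. Piwil2, a PIWI protein of early male germ cells, was at 1.54, 1.04 and 1.31 CPM in NSC, at 22.0, 10.8 and 16.1 CPM in NR, at 2.15, 1.81 and 1.88 CPM in Baseline and at 0.289, 0.471 and 0.4999 CPM in Sox1posGP. Baseline was thus above NSC for this gene, in all 3 libraries.

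Mael, a germ granule protein, was at 2.12, 0.518 and 1.61 CPM in NSC and at 23.9, 12.1 and 20.03 CPM in NR. Fkbp6, a cochaperone of PIWI loading, was at 1.39, 0.0690 and 1.16 CPM in NSC and at 27.1, 9.86 and 22.7 CPM in NR. Mov10l1, the helicase that hands precursors to the pathway, was at 0.894, 0.380 and 0.670 CPM in NSC and at 14.8, 7.02 and 10.4 CPM in NR. Fkbp6 had the largest called log2 fold change of the 31, 4.45 ± 0.57, with NSC 2 far below the other NSC libraries. Tdrd5, a Tudor-domain protein, was at 0.559, 1.14 and 0.731 CPM in NSC and at 10.6, 7.54 and 8.11 CPM in NR, and here NSC 2 was the highest of its group. In the NPC libraries these 4 genes lay between 0 and 0.279 CPM. Tdrd1 and Piwil1 were called as well, at lower levels of 1.68 to 4.12 CPM and 0.934 to 1.84 CPM in NR. Piwil4 was at 0.559, 0.794 and 0.548 CPM in NSC and at 1.11, 0.580 and 1.04 CPM in NR, with a log2 fold change of 0.51 ± 0.38 (adjusted p = 0.287). Asz1, a protein of the same mitochondrial germ granules, had 57 counts in NR and 4 in NSC, while Tdrd9 stayed at 0.561 CPM or less and Tdrd6 at 0.579 CPM or less in every library.

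Tdrkh, a mitochondrial Tudor-domain protein that holds PIWI proteins for trimming of their RNAs, ran against the rest. It was at 36.8, 34.1 and 37.7 CPM in NSC, at 17.4, 24.4 and 21.9 CPM in NR, at 105, 94.2 and 98.2 CPM in Baseline and at 151, 136 and 141 CPM in Sox1posGP. No 2 groups overlapped, and NR was below NSC with a log2 fold change of -0.76 ± 0.11 (adjusted p = 8.34e-05). Oaz3, a testis gene whose exons on the opposite strand cover 36.7% of its exon bases, was at 0.833 CPM or less in every library.

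Among the regulators, Dazl, an RNA-binding protein that licenses germ cells for meiosis, was at 1.63, 0.380 and 1.61 CPM in NSC and at 31.7, 13.4 and 22.6 CPM in NR. A single count was found for it in all of Baseline and a single one in all of Sox1posGP. The log2 fold change of NR against NSC was 4.18 ± 0.43 (adjusted p = 9.03e-06). Stra8, the retinoic acid target needed for entry into meiosis, was at 0.670, 0.587 and 0.579 CPM in NSC and at 13.0, 11.3 and 7.30 CPM in NR, with 3 counts in Baseline and none in Sox1posGP. Its promoter, shown above, had the fewest CpG of the 34, and its log2 fold change of 4.08 ± 0.35 (adjusted p = 5.85e-06) was close to that of Dazl. Taf7l, a germ cell form of a general transcription factor subunit, was at 0.242 to 1.096 CPM in NSC and at 2.67 to 9.53 CPM in NR. Brdt, the testis BET bromodomain protein, was at 2.30, 2.04 and 2.74 CPM in NSC, at 4.55, 2.71 and 2.67 CPM in NR, at 4.71, 4.18 and 6.46 CPM in Baseline and at 3.18, 3.61 and 2.67 CPM in Sox1posGP. NR and NSC overlapped for Brdt, with a log2 fold change of 0.46 ± 0.26 (adjusted p = 0.154).

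Of the remaining germ cell genes, Tex19.1, which acts in transposon control and is also known from pluripotent cells and placenta, was at 7.40, 2.31 and 7.06 CPM in NSC and at 105, 46.7 and 71.4 CPM in NR. Rpl10l, a retrogene of the ribosomal protein gene Rpl10, was at 2.35, 0.759 and 2.95 CPM in NSC and at 50.7, 20.98 and 34.1 CPM in NR. Reads of Rpl10 could be counted for Rpl10l, but Rpl10l had 2 counts in Baseline and 1 in Sox1posGP, where Rpl10 had means of 326 and 403 CPM. Stk31, a kinase-like Tudor protein, was at 2.46, 0.656 and 2.59 CPM in NSC and at 47.8, 17.4 and 32.7 CPM in NR. Tex14, needed for the bridges between germ cells, was at 1.43, 0.518 and 1.83 CPM in NSC and at 30.3, 13.8 and 19.4 CPM in NR, with 0.157 to 0.666 CPM in the NPC libraries. Dpep3, a testis dipeptidase, was at 0.112, 0.0690 and 0.122 CPM in NSC and at 1.48, 1.06 and 1.21 CPM in NR. Slc25a31, the germ cell ADP/ATP carrier, and Tex101, a germ cell surface protein, were also called, at 2.32 to 4.37 CPM and 0.773 to 1.26 CPM in NR. Tex13 stayed at 0.369 CPM or less.

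Per kilobase of exon, the genes could be set in order within NR. Tex19.1 had a mean of 39.7 RPKM, Syce2 39.3 and Rpl10l 34.5, and then followed Fkbp6 and Syce1 at 11.3 each, Mael at 10.8, Stk31 at 10.1 and Ddx4 at 9.63. The spread between the 3 libraries was wide, with SDs of 9.77 CPM on a mean of 29.0 for Ddx4 and of 29.3 CPM on 74.4 for Tex19.1, and neighbours in this order overlapped between libraries, except that every Rpl10l value was above every Fkbp6 value.

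**Figure D4:**
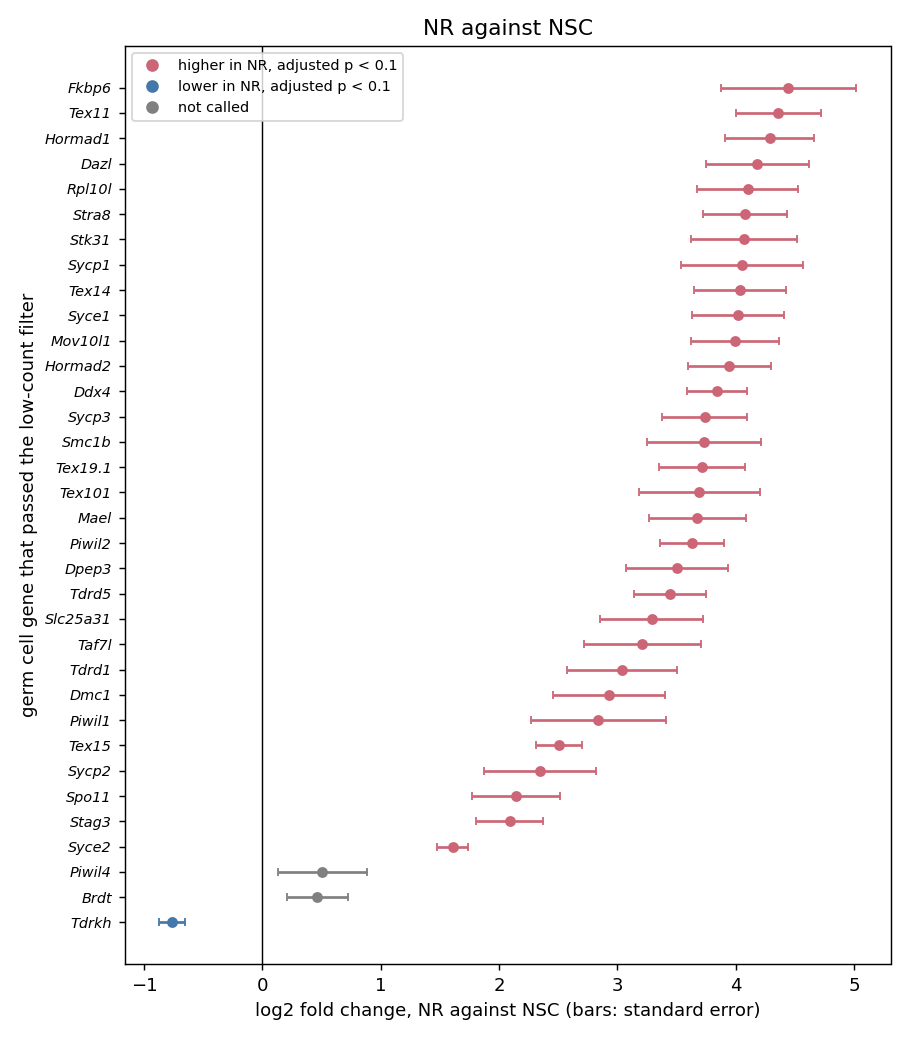
Log2 fold change of NR against NSC (x axis, bars give the standard error) for the 34 germ cell genes that passed the filter on low counts (y axis, ordered by value), coloured by the call at an adjusted p under 0.1. The 31 genes in red lie between 1.61 for Syce2 and 4.45 for Fkbp6, Piwil4 and Brdt in grey were not called, and Tdrkh in blue is at -0.76.

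The comparison of NSC with Baseline set early neural cells against glial progenitors. In NSC, 26 of the 40 genes were higher than in Baseline, where 44.4% of all genes tested were called higher, and 4 were lower, where 33.7% were. The median log2 fold change of the 40 genes was 3.08, or 2.25 with the 4 genes at 0 in Baseline set at the lower bound of their fold, against 0.33 over all genes. The clearest was Syce2, with a log2 fold change of 4.73 ± 0.21. Tex15 was higher by 3.14 ± 0.29 and Ddx4 by 1.08 ± 0.34 on the log2 scale. For most others the Baseline total was 3 counts or fewer, so that only a ratio of counts can be given. It was 56.6 for Tex19.1, with a 95% interval of 19.3 to 275, and 14.7 for Mael, with an interval of 4.93 to 71.8. Tdrkh (-1.45 ± 0.11), Brdt (-1.09 ± 0.27), Tex101 (-2.50 ± 0.67) and Piwil2 (-0.60 ± 0.30) were lower in NSC on the log2 scale, with adjusted p-values of at most 0.0901. The Piwil2 call passed in only 9 of 20 alternatives (highest adjusted p = 0.264), and was lost with both other scalings, with no filter, with DESeq2 and without 1 library in 7 cases (NSC 2, NSC 3, any Baseline library, Sox1posGP 2 or Sox1posGP 3). Of the 26 higher calls, 7 were lost under at least 1 alternative, those of Tex14, Spo11, Dmc1, Sycp3, Tdrd1, Piwil1 and Fkbp6. In a fit on the NSC and Baseline libraries alone, 14 of the 26 genes passed the filter on low counts and all 14 kept their call. The other 12, Dazl and Sycp1 among them, did not pass it without the other groups, so their calls rest on genes that entered the test through libraries outside this comparison.

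The comparison of NR with Baseline gave more calls. In NR, 32 genes were higher than in Baseline, against 45.6% of all genes tested, and 2 were lower, against 34.1%. Of the genes with a count, tested or not, 23.7% and 17.7% were called, against 80.0% and 5.0% of the 40. The median log2 fold change was 5.93, or 5.17 with the 5 genes at 0 in Baseline at their bound, against 0.46 over all genes. Syce2 was higher by 6.33 ± 0.20 and Tex15 by 5.65 ± 0.28 on the log2 scale. Against the single Baseline count of Dazl the ratio was 602, with a 95% interval of 108 to 23785. Slc25a31 and Piwil1 had no count in Baseline and were at least 30.3-fold and at least 14.2-fold higher in NR, with the floor taken at 3 counts over the group. Tdrkh was lower, with a log2 fold change of -2.22 ± 0.11. Brdt was also called lower, at -0.63 ± 0.27 (adjusted p = 0.0489), but its groups overlapped. This call was lost without NR 2, NR 3 or Baseline 3, with adjusted p-values of 0.143, 0.144 and 0.183, and 1 gene was then called lower. Of the 32 higher calls, 1 was lost under some alternatives, that of Tex101.

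The comparison of Sox1posGP with Baseline asked whether the NPCs with Sox1 induced moved toward expression of these genes. In Sox1posGP, 2 of the 40 genes were higher, where 21.6% of all genes tested were called higher, and 5 were lower, where 22.7% were. Of the genes with a count, tested or not, 11.2% and 11.8% were called, against 5.0% and 12.5% of the 40. The share of lower calls was thus near that of all genes. For 23 genes both groups held 3 counts or fewer. None of them was called, and no fold is given for them at this depth. The median log2 fold change of the 40 genes was -0.11, against 0.00 over all genes. This median includes the 23 genes at 3 counts or fewer, so it does not measure a shift of the list. Tdrkh was the only gene of the list at a high level, and it was higher by 0.52 ± 0.11 (adjusted p = 0.00169). It lies on chromosome 3 in a region where other genes were higher too: of 87 other genes with a mean above 8 CPM that start in a window of 10 Mb centred on it, 73 were called higher, with a median log2 fold change of 0.99 against -0.05 over all such genes of the genome. This window was chosen after the values were seen, and the part of the region in the level of Tdrkh was not tested. Spo11 was the other gene called higher, on 6 counts against 1, a ratio of 10.9 with a 95% interval of 1.32 to 501.

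The 5 genes lower in Sox1posGP rested on few counts. Piwil2 had 58 counts in Baseline and 7 in Sox1posGP, a log2 fold change of -2.15 ± 0.48 (adjusted p = 0.00290), and Tex15 had 20 and 2 counts. Both kept the call under every alternative in which they were tested. In a fit on Sox1posGP and Baseline alone, Tex15, Ddx4, Taf7l, Tdrd5 and Spo11 did not pass the filter on low counts. Their calls thus rest on genes that entered the test through the other groups. Ddx4 had 28 and 5 counts, Taf7l 28 and 2, and Tdrd5 5 and 0. Ddx4, Taf7l and Tdrd5 lost the call when any 1 of the Sox1posGP libraries was left out, with 2 or 3 genes then called lower. Ddx4 and Taf7l also lost it without Baseline 1 and Tdrd5 without Baseline 2 or Baseline 3. Ddx4 and Tdrd5 lost it with DESeq2 as well, and Tdrd5 with no filter and with the replicate block. Spo11 lost its call without Sox1posGP 3 (adjusted p = 0.104), which left 1 gene called higher. Stag3 and Brdt, at -0.87 ± 0.40 and -0.67 ± 0.31, did not pass the threshold (adjusted p of 0.104 and 0.102).

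**Figure D5:**
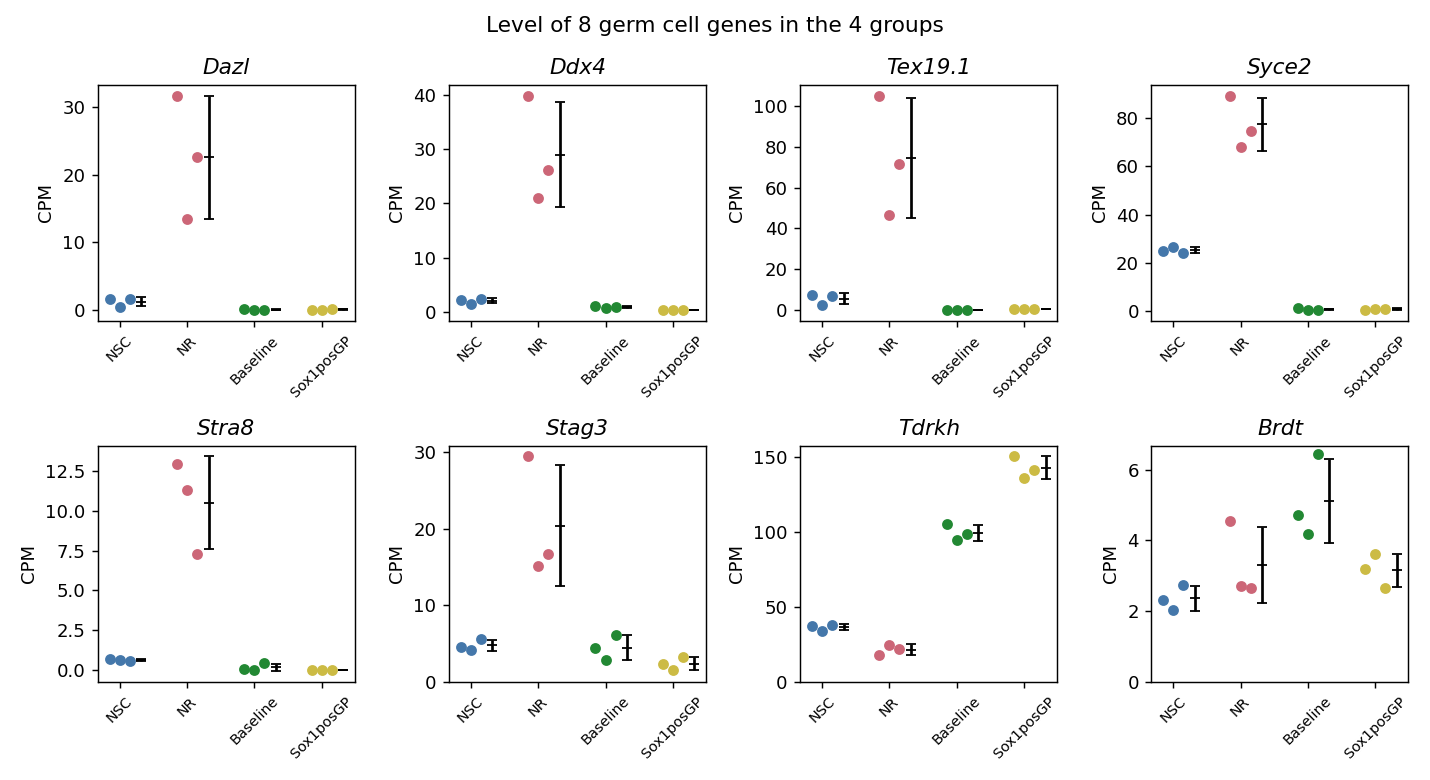
CPM (y axes, linear) of 8 germ cell genes in the 4 groups (x axes), 1 point a library, with the mean and SD of the 3 libraries in black beside them. Dazl, Ddx4, Tex19.1, Syce2, Stra8 and Stag3 are highest in NR in every library, Tdrkh is highest in Sox1posGP and lowest in NR, and the Brdt values of all groups lie between 2.04 and 6.46 CPM.

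A further 52 germ cell and meiosis genes, a list without the 40, were measured for comparison. In NR 30 of them were higher than in NSC and 6 lower, and the median log2 fold change was 2.57. The filter on low counts kept 40 of the 52, and genes that did not pass it count as not called in these shares. The shares were 57.7% and 11.5%, where 15.6% and 13.8% of the 32778 genes with a count were called. In NSC 22 of the 52 (42.3%) were higher than in Baseline and 4 (7.69%) lower, where 23.0% and 17.5% of the genes with a count were. In Sox1posGP 5 (9.62%) were higher than in Baseline and 6 (11.5%) lower, near the 11.2% and 11.8% of the genes with a count. Tdrd12, a partner of the PIWI proteins, rose from a mean of 1.34 CPM in NSC to 27.3 CPM in NR (log2 fold change 4.33 ± 0.26, adjusted p = 1.73e-07), and the tubulin gene Tuba3a from 1.84 to 38.7 CPM. Ctcfl, the germ cell paralog of Ctcf, had means of 0.0277 CPM in NSC and 0.764 CPM in NR. Of the genes that differed between the NPC groups, Tdrd7 was higher in Sox1posGP, with means of 63.5 and 21.6 CPM, and Mei4 was lower, with 0.637 and 5.24 CPM. Of 10 genes of late spermatids, protamines and transition proteins among them, none passed the filter, and their summed level was at most 1.57 CPM in any library.

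The machinery that methylates and represses germ cell promoters was present in every group. Of 35 genes of DNA methylation and germline repression, 14 (40%) were higher and 12 (34.3%) lower in NR than in NSC, where 30.0% and 26.6% of all genes were, with a median log2 fold change of -0.07. The de novo enzymes and their cofactor were highest in the NR libraries. Dnmt3b was at 884, 325 and 612 CPM in NR, 114, 65.5 and 119 CPM in NSC and 8.78 to 9.59 CPM in the NPC libraries, and NR was above NSC by 2.61 ± 0.29 on the log2 scale (adjusted p = 1.44e-05). Dnmt3l was at 124, 62.1 and 91.0 CPM in NR, at 7.35, 2.62 and 7.67 CPM in NSC and at 0.579 CPM or less in the NPC libraries. Dnmt3a followed the same order with a smaller step, 0.90 ± 0.19 between NR and NSC. Both Dnmt3l and Dnmt3b are also abundant in pluripotent cells. Tet1, which oxidizes methylcytosine, had means of 118 CPM in NR, 43.2 CPM in NSC and 19.9 CPM in Baseline.

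Dnmt1, the maintenance enzyme, was at 377 to 424 CPM in NR, 430 to 497 CPM in NSC, 192 to 231 CPM in Baseline and 305 to 361 CPM in Sox1posGP. The part of these enzymes in the germ cell gene levels was not tested. Sox1posGP was above Baseline by 0.64 ± 0.10 (adjusted p = 0.000140). Uhrf1, its partner, had means of 179 CPM in Sox1posGP and 67.9 CPM in Baseline. E2f6 was lower in NR than in NSC (log2 fold change -0.57 ± 0.13, adjusted p = 0.00226) and in Sox1posGP than in Baseline (-0.44 ± 0.14, a call lost without Baseline 1), and higher in NSC than in Baseline (0.68 ± 0.13). Max, their partner, differed from Baseline more than E2f6 and Mga did. It was at 72.0 to 100.9 CPM in Baseline, 48.3 to 59.3 CPM in Sox1posGP, 9.04 to 23.2 CPM in NSC and 16.6 to 18.8 CPM in NR. Its log2 fold changes against Baseline were -2.62 ± 0.28 in NSC, -2.31 ± 0.28 in NR and -0.71 ± 0.27 in Sox1posGP, the last lost without Baseline 2, Baseline 3, Sox1posGP 2 or Sox1posGP 3, and NR and NSC overlapped. Mga was lower in Sox1posGP than in Baseline (-0.56 ± 0.13), and its call of 0.28 ± 0.12 higher in NR than in NSC rested on groups that overlapped. Setdb1, a histone methyltransferase that also lies in the chromosome 3 region named above, had means of 320 CPM in Sox1posGP and 115 CPM in Baseline. In that comparison 8 of the 35 genes (22.9%) were higher and 14 (40%) lower, where 21.6% and 22.7% of all genes were.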

How the data were processed

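RNA of 12 libraries (SMART-Seq v4 cDNA from sorted or cultured cells) was sequenced by the authors, who deposited whole-number counts for 45706 Ensembl genes. The submitters' processing notes name STAR 2.6, RSEM 1.1.14 and the build mm10 without giving their roles, so the counts may be rounded estimates, and whether counting used strand is not given in the sources used here. Symbols and positions were taken from GENCODE M21 (563 genes had no symbol), promoters from RefSeq.

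Groups followed the labels, with 3 replicates each. Counts were fitted with edgeR 4.0.16 (R 4.3.3) by the quasi-likelihood test on all 12 libraries, with TMM scaling and filterByExpr, and p-values were adjusted by Benjamini-Hochberg over 17003 genes. Genes with an adjusted p under 0.1 were called. Standard errors are on the log2 scale. Ratios of counts carry exact 95% intervals, used where a group held 3 counts or fewer. The fit was tested on simulated data. Replicates were made on different days, and p-values measure the spread between these samples. No replicate pair agreed within sampling noise. Same-numbered NR and NSC libraries deviated together (correlations of 0.229, 0.490 and 0.296), and the fit with the replicate number as a block changed no call of a germ cell gene between them. Other scalings, filters, DESeq2 1.42.0, fits on the compared groups alone and fits without each library were tried. The germ cell genes and all other lists were chosen with earlier results of these data known. Up to 25 germ cell genes, by smallest adjusted p, were given in every library and the others by range and counts.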

Additional observations from a re-analysis of the deposited data

How the results depend on the processing

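Of the calls of NR against NSC, all 31 higher and the 1 lower were kept under every alternative in which the genes were tested, and with any 1 library left out 31 to 34 were higher and 1 lower. No call reversed under any alternative. With only the groups compared in the fit, 14 genes were higher in NSC than in Baseline instead of 26, and 1 was higher and 3 lower in Sox1posGP than in Baseline instead of 2 and 5. No gene lost its call there: 12 of the 26, and 1 of the 2 and 4 of the 5, did not pass the filter on low counts in these fits. A fold over 4 left 1 gene higher in Sox1posGP, 1 lower in NSC and 1 lower in NR than in Baseline, and 0 lower in NR than in NSC. An adjusted p under 0.05 left 2 lower in Sox1posGP, and a minimum of 10 counts in 6 libraries left 1 higher. With any 1 library left out, Sox1posGP against Baseline gave 1 to 2 higher and 2 to 7 lower, NSC against Baseline 21 to 27 higher and 3 to 4 lower, and NR against Baseline 31 to 34 higher and 1 to 2 lower. Same-numbered libraries of the comparisons with Baseline correlated between -0.0472 and 0.0475. These values do not settle whether a shared number marks a shared day or batch, and no label says so. The replicate block gave 3 higher and 5 lower in Sox1posGP, where Tex19.1 (adjusted p = 0.0552) and Stag3 (0.0851) were gained and Tdrd5 (0.146) was lost, and moved no other count. In 4 of the 6 libraries of Sox1posGP and Baseline, 0 of 6 of NSC and Baseline and 6 of 6 of NR and Baseline, the best correlation was with the same number. Detected genes depended on the threshold. In NSC they were 25 at 0.5 CPM, 8 at 2 CPM, 39 with a count in every library and 21.9 at the smallest total. In Baseline they were 8, 3, 12 and 8.86, and in Sox1posGP 4, 3, 10 and 7.92. With a library left out they were 12 to 16 in NSC, 31 to 33 in NR, 4 in Baseline and 3 to 4 in Sox1posGP. Depth limits the NPC groups most, where 26 and 30 genes had 3 counts or fewer.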

Other observations

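Markers of other lineages also differed between the libraries labelled NR and NSC. Of 7 neuron markers 6 were lower in NR than in NSC and 0 higher, where 26.6% and 30.0% of all genes tested were. Their summed level was 336 to 508 CPM in NR, 597 to 749 CPM in NSC, 475 to 501 CPM in Baseline and 417 to 436 CPM in Sox1posGP. The median of the 7 differed more, at 26.0 to 53.9 CPM in NR, 51.5 to 110 CPM in NSC, 1.25 to 2.09 CPM in Baseline and 3.83 to 5.81 CPM in Sox1posGP. In NR and in NSC, 6 of the 7 were higher than in Baseline and 1 was lower. Of 10 mesoderm and endoderm markers 6 passed the filter on low counts. Of these, 5 were higher in NR than in NSC and 1 lower, where 30.0% and 26.6% of all genes tested were. The sums of the 10 were 96.2 to 145 CPM in NR, 40.5 to 56.8 CPM in NSC, 21.7 to 29.7 CPM in Baseline and 31.5 to 39.7 CPM in Sox1posGP. The log2 fold changes of NR against NSC were 4.25 for T, the mesoderm factor Brachyury, 2.75 for Eomes, 2.72 for Sox17 and 2.09 for Gata4 (edgeR's quasi-likelihood test). These were the 4 higher by over 4-fold, and the marker called lower fell by less than that. NR 2, the NR library with the fewest germ cell transcripts, had the highest sum of these mesoderm and endoderm markers.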
